A study of Homo sapiens with 7 samples.

Results

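In LNCaP cells, 15571 FOXA1 peaks found with DMSO were absent from the list made with the LSD1 inhibitor GSK2879552 (below, GSK) and present in the list made with GSK2879552 plus the SETD7 inhibitor PFI-2 (the combination). They were chosen by peak presence, among the 79741 DMSO peaks on chromosomes 1 to 22 and X, as those that shared at least 1 bp with a combination peak and none with a GSK peak. They are called lost-and-present sites here, and presence or absence in the 3 LNCaP lists is what chose them. It is therefore a description and not evidence of a treatment effect. The rule takes in 19.5% of the DMSO peaks (95% Wilson interval 19.3 to 19.8, counting error only, as for every interval here). A combination peak was found at 88.6% of all DMSO peaks. DMSO peaks lacking a GSK peak numbered 22937, or 28.8%, and 67.9% of these were lost-and-present sites (67.3 to 68.5), a lower share. Both the number and this share depended on list length: the deposited combination list is longer than the GSK list (83352 against 63866 peaks), and shortened by score to the same length it gave 8901 sites and 38.8%. With all 3 LNCaP lists at that length there were 6735 sites and 57.0%.

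The series maps FOXA1 and SETD7 by chromatin immunoprecipitation and sequencing in LNCaP and 22Rv1 (CWR22-Rv1 in the labels), both established human prostate cancer cell lines. It holds 7 libraries, 1 in each group, each given as the authors' peak list on build hg19. LNCaP cells received DMSO, GSK2879552, or GSK2879552 with PFI-2 for 4 hours, and FOXA1 was precipitated. The title of the third library names both compounds, while its treatment field reads as with or without PFI-2, so it is called the combination from its title. The 22Rv1 lists are FOXA1 in vehicle cells, FOXA1 in cells with a control hairpin (shCTL), FOXA1 in cells whose label names an SETD7 hairpin (shSETD7), and SETD7 in vehicle cells. In the vehicle FOXA1 list the peak names include siNTC, a tag found nowhere in the labels. All cells grew in medium with serum, were fixed with formaldehyde, and carried no stated clone or culture number. No LNCaP library with PFI-2 alone was analysed here. With 1 library per group, no difference between conditions could be tested, and read depth is not in the lists.

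FOXA1 is a forkhead pioneer factor that binds enhancers in compacted chromatin and opens them for the androgen receptor in luminal prostate cells. SETD7 is a lysine methyltransferase that modifies histones and other proteins. LSD1, encoded by KDM1A, is a lysine demethylase that acts on histones and has also been reported to act on FOXA1. The combination list shows which FOXA1 sites absent from the GSK list were present in a separate library made with both inhibitors. Of the other DMSO peaks, 55075 were in all 3 LNCaP lists, 7366 were found with DMSO only, and 1729 with DMSO and GSK but not the combination. The peaks of all 3 lists serve below as the comparison at equal DMSO score.

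The lost-and-present sites were mostly weak FOXA1 sites, the lowest decile of the list included. The score is the authors' own value for each peak and is used here only to rank peaks within a list. The DMSO score of these sites had a median of 134, with quartiles of 105 and 176 and a highest value of 771, in a list that ran from 40 to 3636. Their median rank was the 26.4th percentile of the DMSO list. Peaks found with DMSO only were weaker still, with a median at the 11th percentile, and peaks of all 3 lists had their median at the 64.9th percentile. In all, 87.2% of the lost-and-present sites (86.7 to 87.7) had DMSO scores in the lower 50% of that list.

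Their share depended on the DMSO score. In the lowest decile of DMSO scores (40 to 99), 36.6% of the peaks were lost-and-present sites (35.6 to 37.7), and in deciles 2 and 3 the shares were 37.0% and 37.2%. It was 25.3% in decile 5, 6.88% in decile 7 and 2.11% in decile 8. Deciles 9 and 10 together held 32 such sites. Among DMSO peaks without a GSK peak, those also missing from the combination were therefore concentrated at the lowest scores, with 3140 in decile 1, 196 in decile 5 and 5 in decile 7. The plot of peak classes by DMSO decile shows both gradients.

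**Figure D1:**
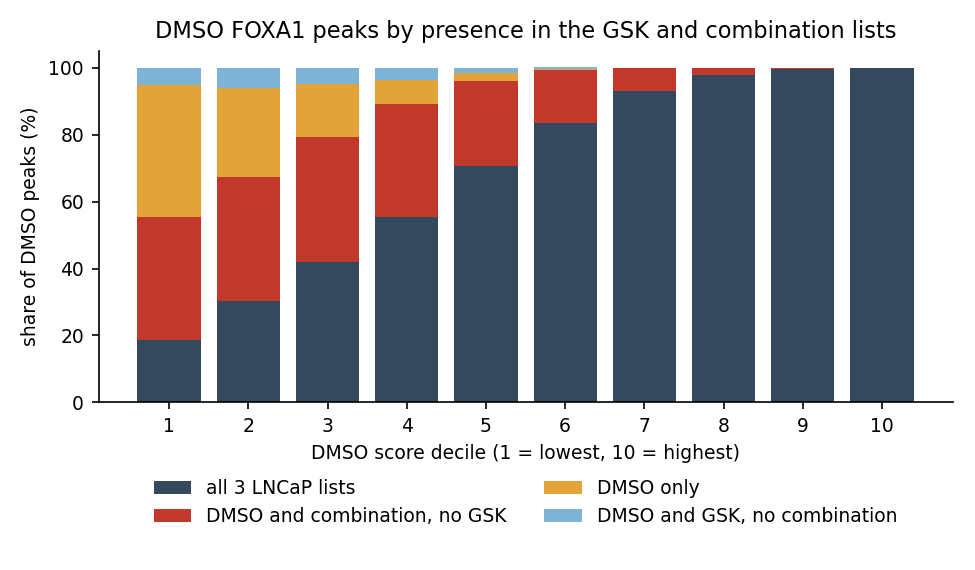
Bars give the share of LNCaP DMSO FOXA1 peaks (%, y axis) in each of 4 presence classes for each decile of DMSO score (x axis, 1 = lowest). Lost-and-present sites (red) make up 36.6% to 37.2% of deciles 1 to 3 and 2.11% of decile 8, while peaks in all 3 LNCaP lists rise from 18.7% in decile 1 to 97.9% in decile 8.

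In the combination the same sites were again weak. Their combination peaks had a median score of 148 and a median rank at the 27.2th percentile of that list. At equal DMSO decile they ranked lower in the combination than peaks of all 3 lists. The mean combination rank was the 28.4th percentile for lost-and-present sites and the 37.9th for peaks of all 3 lists weighted to the same DMSO deciles. The gap held in each of deciles 1 to 9, with medians at the 15.8th against the 25.9th percentile in decile 1 and at the 56.6th against the 65.7th in decile 7. The combination rank is not independent of the choice of members, because a combination peak had to be present.

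Widths showed a different order. The median DMSO width was 278 bp, with quartiles of 236 and 337, and the median width of the combination peak at these sites was 280 bp. Over whole lists, the median width was 333 bp with DMSO, 333 bp with the combination and 263 bp with GSK. The GSK list thus differed from the other LNCaP lists in width as well as in length. Weighted to equal DMSO deciles, the mean width was 300 bp for lost-and-present sites and 299 bp for peaks of all 3 lists. In the upper deciles the lost-and-present sites were the wider ones at equal decile, with medians of 375 against 357 bp in decile 7 and 414 against 383 bp in decile 8. Weighted to equal DMSO deciles, their combination peaks were narrower than those of peaks of all 3 lists, with a mean of 305 against 318 bp. In the upper deciles this order also turned, with medians of 368 against 362 bp in decile 7 and 416 against 385 bp in decile 8. Below decile 7 the sites had the narrower combination peaks. For 97.9% of the sites (97.7 to 98.2) the combination peak covered at least 50% of the DMSO peak, and 22 sites overlapped it by 50 bp or less. The rule itself required an overlap. Of all 70646 DMSO peaks with a combination peak, 69484 met a stricter reciprocal overlap of 50%, so this closeness is not particular to the sites.

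**Figure D2:**
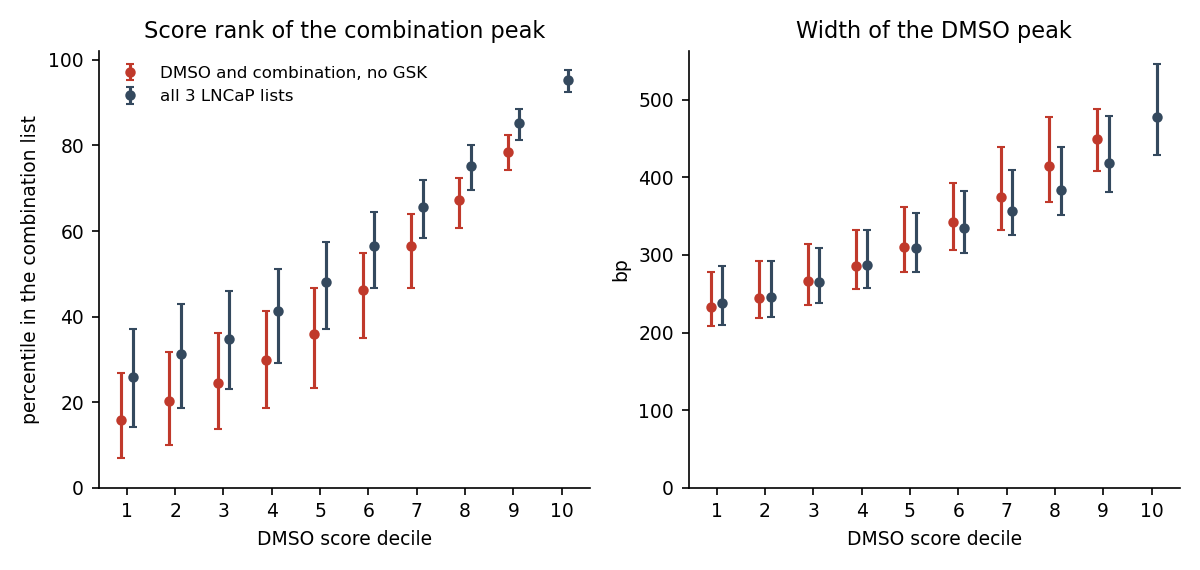
Left, percentile rank of the overlapping combination peak; right, width of the DMSO peak in bp, both by decile of DMSO score. Points are medians and bars the quartiles over peaks, for classes with at least 20 peaks in the decile; lost-and-present sites (red) rank below peaks of all 3 lists (dark) in each of deciles 1 to 9, and are wider in deciles 6 to 9.

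Most sites were far from any GSK peak. The distance to the nearest one, counted as the bases between the peaks, had a median of 13684 bp and quartiles of 6119 and 28802 bp. A GSK peak lay within 1 kb of 1043 sites, or 6.7% (6.32 to 7.1), and within 10 kb of 39.4%. For peaks found with DMSO only, the shares were 5.73% and 36.1%. Weighted to equal DMSO decile, the difference within 1 kb was 0.803 percentage points (interval −0.658 to 2.26), which includes 0. Where a GSK peak lay within 1 kb, it coincided with another DMSO peak in 859 of 1043 cases, or 82.4% (79.9 to 84.6). The same share over all 63866 GSK peaks was not computed. It is also high, since 55075 DMSO peaks in all 3 lists and 1729 with DMSO and GSK overlapped a GSK peak. The 82.4% is thus not shown to be particular to these sites.

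**Figure D3:**
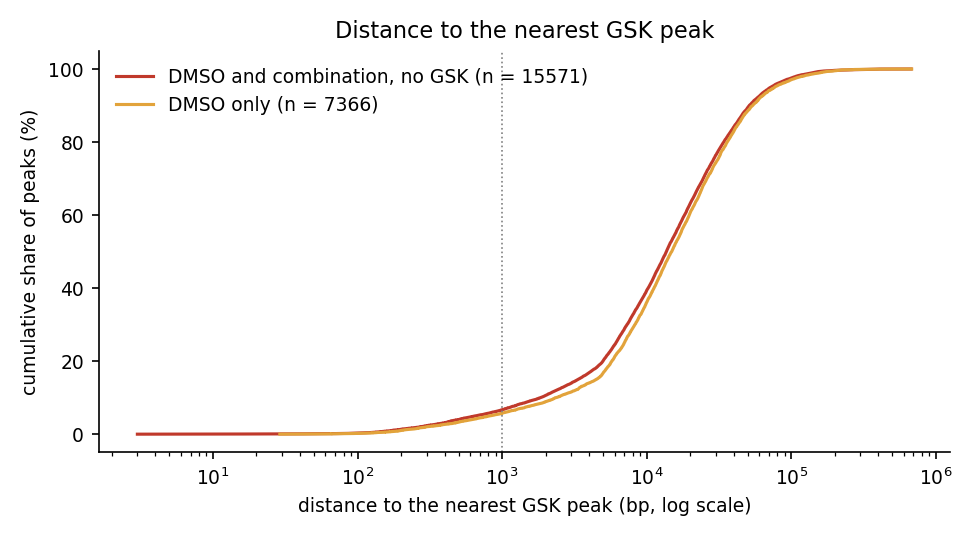
Cumulative share of peaks (%, y axis) by distance in bp to the nearest GSK peak (x axis, log scale), for the 15571 lost-and-present sites (red) and the 7366 peaks found with DMSO only (yellow); the dotted line marks 1 kb. Both curves have reached 6.7% and 5.73% at 1 kb and rise most between about 5 kb and 50 kb.

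The rule turns on 1 bp, and the cases at its edge were few. Only 19 sites had a GSK peak at 50 bp or less, and 7 of the peaks in all 3 lists overlapped their GSK peak by 50 bp or less. The closest case inside the rule was chr17:34044072-34044279, with a DMSO score of 71 and a GSK peak 3 bp away. The closest outside it was chr16:58637588-58638246, with a DMSO score of 209 and 18 bp shared with a GSK peak. Both of these GSK peaks were weak, with scores of 75 and 73 where the lowest GSK score was 48.

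The highest DMSO score among the sites was 771, at chr18:41377212-41377736, the single member in decile 10 of the DMSO list. Its combination peak scored 829 (89.3rd percentile). A GSK peak of score 236 lay 838 bp away, at another DMSO peak, and vehicle 22Rv1 cells had a FOXA1 peak there with a score at the 93.7th percentile of that list. The second, chr3:96431552-96432202, scored 708 with DMSO and 684 with the combination, and its nearest GSK peak was 7085 bp away. It was a vehicle FOXA1 peak (89.5th percentile) and a weak shCTL peak (18.1th percentile). The third, chrX:114383700-114384177, scored 630 and 546, and had no GSK peak for 126837 bp. It was found among the 22Rv1 lists in vehicle FOXA1 only, at the 96.3th percentile.

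The other 7 of the 10 highest DMSO scores ran from 574 to 607. They were chr10:126628563-126628983 (score 607), chr6:122447517-122448393 (604), chr4:71363980-71364428 (594), chr13:35760510-35761032 (592), chr4:101416219-101416692 and chr5:165235254-165235736 (576 each) and chr5:143309278-143309825 (574). Their combination peaks scored between 458 and 814, so none of these sites was near the floor of either list. The nearest GSK peak was between 971 and 21788 bp away. None of the 10 highest sites was in the shSETD7 list, and none overlapped a SETD7 peak, while 6 were in the vehicle FOXA1 list and 4 in the shCTL list. Among all DMSO peaks of decile 9, the decile of 9 of these sites, 37.3% were in the shSETD7 list, 0.716% overlapped a SETD7 peak, 59.7% were in vehicle FOXA1 and 67.0% in shCTL. The counts for SETD7 and vehicle FOXA1 are thus near the shares of all peaks in that decile.

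A high combination score did not mark the same sites. In 4 of the 5 sites with the highest combination scores, a weak DMSO peak of 208 to 294 bp lay under one side of a combination peak that also covered a GSK peak at another DMSO peak. At chr13:46716941-46717151 the DMSO score was 113 and the combination peak scored 1772 over 658 bp, and a GSK peak of score 1180 stood 119 bp away. At chr12:43316381-43316674 the scores were 147 and 1503, with a GSK peak of 1091 at 123 bp. The others of this kind were chr5:92394626-92394833 (112 and 1076) and chr5:149014190-149014397 (103 and 911). At these 4 sites the high combination score belongs to the wide peak as a whole. Such cases were rare, since 108 of the 15571 sites, or 0.694%, had a combination peak that touched a GSK peak.

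The sites farthest from any GSK peak were weak in LNCaP and varied in 22Rv1. At chr6:67011709-67012048 the nearest GSK peak was 674508 bp away; the site scored 158 with DMSO and 179 with the combination. A neighbour, chr6:67106496-67106830, had a GSK peak no closer than 612972 bp and scored 89 and 73. Both were in all 3 FOXA1 lists of 22Rv1, where the first ranked at the 95.1th percentile with vehicle, the 68.3th with shCTL and the 66.4th with shSETD7. The third, chr8:4712284-4712515, was at 582295 bp and was again in all 3, at the 93.5th percentile with vehicle, the 92.7th with shCTL and the 93.6th with shSETD7. The remaining sites, chr2:56979605-56979954 and chr2:141683266-141683597, were in none of the 22Rv1 lists.

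Lost-and-present sites were found less often in every 22Rv1 list than DMSO peaks of equal score that kept a GSK peak. These lists played no part in the choice of the sites. In vehicle FOXA1, 19.3% of the sites (3009 sites) had a peak, where 39.2% of all DMSO peaks did. Peaks of all 3 LNCaP lists weighted to the same DMSO deciles gave 34.3%, a difference of −15.0 percentage points (−15.9 to −14.1). In the shCTL list the sites were present in 28.8% (28.1 to 29.5) and the matched peaks in 43.8%, a difference of −15.0 points (−16.0 to −14.0), with 47.9% for all DMSO peaks. In the shSETD7 list, 11.6% of the sites (1809; 11.1 to 12.1) and 29.1% of the matched peaks were present, a difference of −17.4 points (−18.3 to −16.6), with 28.1% for all DMSO peaks.

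These differences went the same way on each chromosome. In every FOXA1 list of 22Rv1 the lost-and-present sites were less often present on 23 of 23 chromosomes, at equal DMSO decile within the chromosome. For shSETD7 the difference ran from −7.93 points on chromosome 22 to −20.7 on chromosome 3, and for vehicle from −1.66 on chromosome 20 to −20.4 on chromosome 9. Because the sites also ranked lower in the combination, peaks were matched on both DMSO and combination decile as well. The differences were then −13.8 points for vehicle, −15.0 for shCTL and −18.3 for shSETD7. Peaks of 1 library are not replicates, so the intervals do not speak to variation between cultures.

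Among the 3 FOXA1 lists of 22Rv1, shSETD7 departed from the other two in how presence varied with the DMSO score. The share of lost-and-present sites found in vehicle FOXA1 was 18.3% in DMSO deciles 1 to 5 (17.7 to 19.0) and 26.2% in deciles 6 to 10 (24.3 to 28.2). In shCTL it was 28.2% (27.5 to 29.0) and 32.3% (30.3 to 34.4). In shSETD7 it went the other way, with 12.1% in deciles 1 to 5 (11.6 to 12.7) and 8.27% in deciles 6 to 10 (7.14 to 9.56). Peaks of all 3 LNCaP lists were present in shSETD7 in 29.2% and 36.1% of cases in the same ranges, without matching within a range. Of the 1995 sites in deciles 6 to 10, 1252 were in decile 6 and 542 in decile 7. In decile 6, 9.03% of the sites and 26.9% of the peaks of all 3 lists were in shSETD7. In decile 7 the shares were 6.64% and 27.6%. The peaks of all 3 lists were thus also below 29.2% there, and their 36.1% includes 55.1% in decile 10. Of the 32 sites in deciles 9 and 10, vehicle FOXA1 held 20, shCTL held 14 and shSETD7 held 1. These are 62.5% (45.3 to 77.1), 43.8% (28.2 to 60.7) and 3.12% (0.554 to 15.7), beside 59.7%, 67.0% and 37.3% of all DMSO peaks in decile 9, which holds 31 of the 32. The vehicle share was thus near that of all peaks. In the SETD7 list presence was 0.243% in deciles 1 to 5 (0.173 to 0.341) and 0.1% in deciles 6 to 10 (0.0275 to 0.365).

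**Figure D4:**
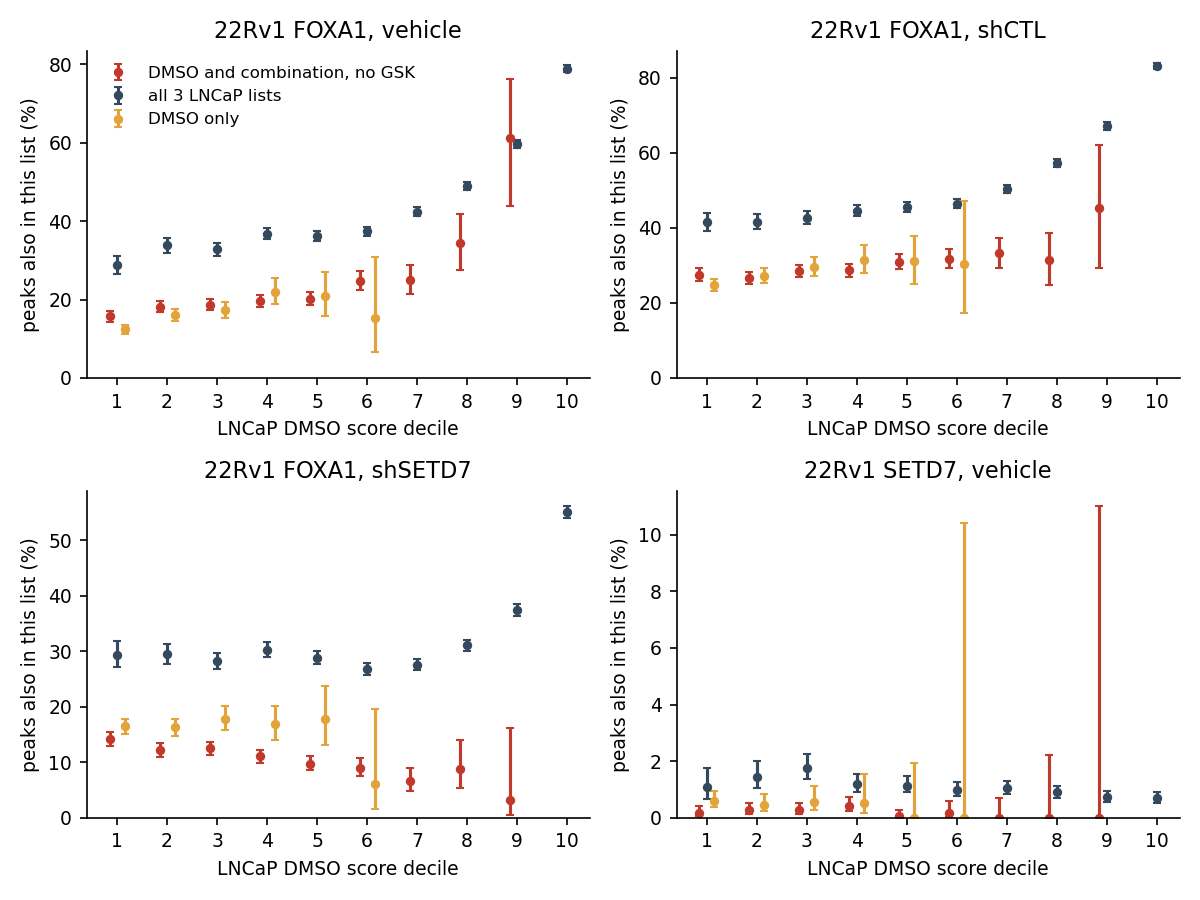
Share of LNCaP DMSO peaks (%, y axis) that overlap a peak of each 22Rv1 list, by LNCaP DMSO score decile (x axis), with 95% Wilson intervals, for lost-and-present sites (red), peaks of all 3 LNCaP lists (dark) and peaks found with DMSO only (yellow), where a class has at least 20 peaks. In shSETD7 the red points fall from 14.2% in decile 1 to 6.64% in decile 7 while the dark points stay between 26.9% and 30.3% over deciles 1 to 7.

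Against peaks found with DMSO only, which also lacked a GSK peak, the sites were much closer. At equal DMSO decile the difference was 1.73 points for vehicle FOXA1 (−0.373 to 3.84) and −0.505 for shCTL (−2.98 to 1.97), and both intervals include 0. The vehicle interval did not include 0 when peaks were matched on the exact DMSO score (1.7 points, 0.0363 to 3.37). With the 3 LNCaP lists at equal length the vehicle difference was 4.63 points (1.47 to 7.78), and the shCTL difference turned to 1.51 (−1.92 to 4.94). For shSETD7 it was −3.88 points (−5.51 to −2.26), with 11.7% of the lost-and-present sites against 15.6%. At equal list length this last difference was −2.85 points, with an interval of −5.71 to 0.00453 that reaches 0. Conversely, after weighting to the same deciles, the peaks found with DMSO and GSK but not the combination were the most often present in each 22Rv1 FOXA1 list. In shSETD7 they were present at 41.1%, 29.4 points above the lost-and-present sites. Without weighting, peaks of all 3 LNCaP lists were more often present in vehicle FOXA1 (48.1% against 38.1%) and shCTL (56.0% against 49.4%).

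Few of the sites overlapped SETD7 itself. A SETD7 peak of vehicle 22Rv1 cells was found at 35 sites, or 0.225% (0.162 to 0.312), where 0.846% of all DMSO peaks had one. Matched peaks of all 3 LNCaP lists gave 1.29%, a difference of −1.07 points (−1.26 to −0.877). Against peaks found with DMSO only, at equal DMSO decile, the shares were 0.228% and 0.402%. That difference was −0.175 points (−1.11 to 0.764), and its interval includes 0, so the low overlap is not shown to be particular to the sites. SETD7 was mapped in the other cell line, so this does not describe SETD7 in LNCaP. The overlap also depended on the rule, and with 50% reciprocal overlap the difference from peaks of all 3 lists was −0.301 points.

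Across the 3 FOXA1 lists of 22Rv1, 64.0% of the sites (9970) were in none, 17.9% in 1, 12.5% in 2 and 5.63% (876) in all 3. Of the peaks of all 3 LNCaP lists, 35.7% were in none and 26.2% in all 3, without matching. Peaks found with DMSO only were close to the sites, with 65.8% in none and 6.3% in all 3. The same shares over all DMSO peaks were not computed. No count in all 4 lists of 22Rv1, SETD7 included, was made for other DMSO peaks. Of the sites, 16 were in all 4. The 5 of these with the highest DMSO scores were chr12:51961798-51962167 (score 265), chr1:168323501-168323831 (247), chr4:63598091-63598365 (170), chr8:73065062-73065322 (169) and chr6:111225903-111226119 (164). The second of them ranked at the 56.0th percentile with DMSO and the 33.7th with the combination, and high in 22Rv1, with a score of 8428 at the 99.8th percentile of the shSETD7 list. SETD7 scores at these 5 sites were 17 to 30, between the 8.8th and the 52.9th percentile of the SETD7 list.

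The knockdown comparison in 22Rv1 was then followed at the 4478 sites that had an shCTL peak. Of these, 33.2% (1488; 31.9 to 34.6) also had an shSETD7 peak, where 52.2% of all DMSO peaks at shCTL peaks did. Their shCTL peaks were of middle rank, with a median at the 48.9th percentile of the shCTL list, against the 73.7th for peaks of all 3 LNCaP lists. With peaks matched by decile of both DMSO and shCTL score, 49.7% of the peaks of all 3 lists were also in shSETD7, a difference of −16.5 points (−18.2 to −14.8). Its size depended on the matching, at −7.47 points with shCTL decile only (−8.92 to −6.02) and −24.1 with DMSO decile only (−25.9 to −22.3). The strongest shCTL peaks were no exception: within shCTL decile 10, 117 of 211 sites were in the shSETD7 list, or 55.5% (48.7 to 62.0), against 79.0% (78.0 to 79.9) of the peaks of all 3 lists.

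The same comparison with the vehicle list (65093 peaks, against 63682 for shSETD7) gave a smaller difference. The vehicle list was unlike the hairpin lists in other ways. Its median width was 262 bp, against 340 bp for shCTL and 357 bp for shSETD7, and its highest score 3392, against 84065 and 35543. How far this enters the comparison was not tested. In the vehicle list 47.3% of the 4478 sites (45.8 to 48.8) were found, where 69.4% of all DMSO peaks at shCTL peaks were, and the matched difference was −8.81 points (−10.6 to −7.06). Computed peak by peak over the 4473 sites whose strata allowed it, the shSETD7 difference minus the vehicle difference was −7.62 points (−9.98 to −5.26). Of the 2118 sites found in both vehicle and shCTL, 876 were also in shSETD7, or 41.4% (39.3 to 43.5). The share was 62.7% (62.1 to 63.3) for peaks of all 3 LNCaP lists and 56.5% (53.1 to 59.9) for peaks found with DMSO only. Against the DMSO-only peaks at shCTL peaks, which also lacked a GSK peak, the matched difference was −10.2 points for shSETD7 (−13.8 to −6.61) and 2.93 for vehicle (−0.641 to 6.49). It covers the 4149 of 4478 sites whose strata held DMSO-only peaks, and was not repeated with equal-sized LNCaP lists.

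**Figure D5:**
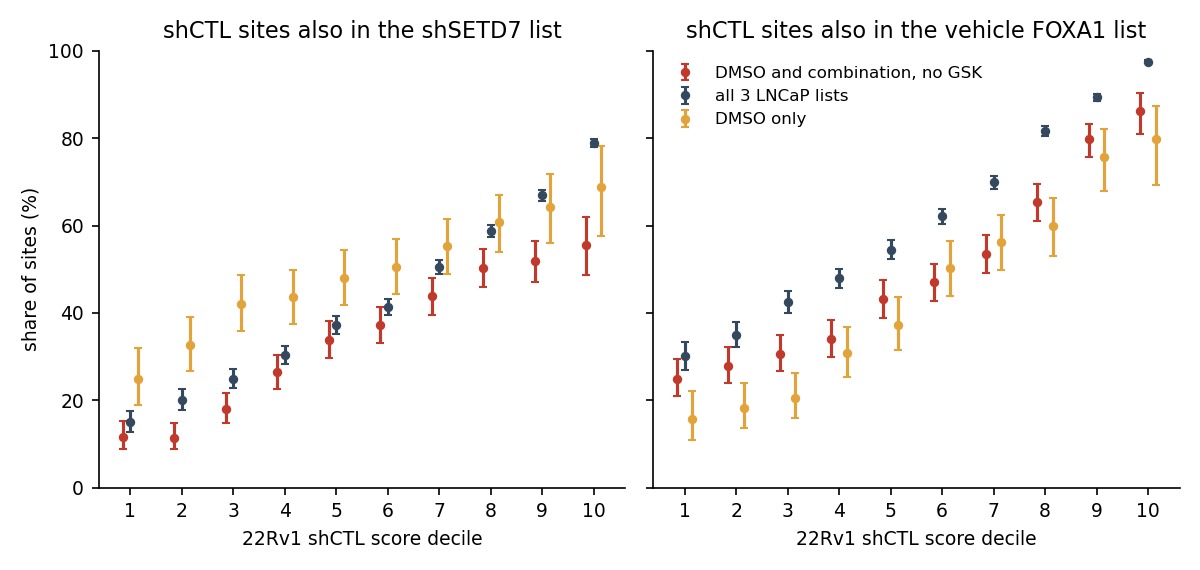
Share of LNCaP DMSO peaks at shCTL peaks (%, y axis) that also overlap a peak of the shSETD7 list (left) or the vehicle FOXA1 list (right), by decile of shCTL score (x axis), with 95% Wilson intervals. At decile 10 the lost-and-present sites (red) reach 55.5% in shSETD7 and 86.3% in vehicle, and peaks of all 3 LNCaP lists (dark) 79.0% and 97.5%.

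The sites were spread over all chromosomes, with an uneven share. They made up 14.1% of the DMSO peaks of chromosome 19 (12.2 to 16.2), 14.4% of chromosome 16, 15.3% of chromosome 20 and 15.4% of chromosome 22, the 4 lowest shares. The highest were 23.9% on chromosome X (22.2 to 25.7), 21.9% on chromosome 21, 21.8% on chromosome 13 and 21.2% on chromosome 4. At equal DMSO decile, the difference from the other chromosomes was −6.79 points for chromosome 19 (−8.7 to −4.87), and chromosome 13 stood 2.09 above them (0.57 to 3.62). Chromosome X stood 2.0 points above (0.328 to 3.68), and its DMSO peaks were weaker, with a median at the 44.5th percentile.

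Within chromosomes, the share varied further. Among 571 windows of 5 Mb with at least 50 DMSO peaks, the median share was 19.1%, with quartiles of 16.0% and 22.5%. The highest was 41.2% (49 of 119 peaks; 32.7 to 50.2), at chr13:70000001-75000000, followed by 36.6% at chr21:20000001-25000000 (53 of 145). The lowest was 3.39% (2 of 59), at chr1:120000001-125000000. These windows were picked as extremes after the values were seen.

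Neighbouring sites were only slightly more alike than matched peaks. The nearest DMSO peak was itself a lost-and-present site for 20.5% of the sites and for 19.4% of the matched peaks of all 3 lists, a difference of 1.09 points (0.213 to 1.96). The median distance to that nearest DMSO peak was 10820 bp, against 10859 bp for peaks of all 3 lists. Most sites stood alone in the order of DMSO peaks, with 9905 runs of 1. Sites that are 19.5% of the peaks would mostly stand alone if scattered without order, and no expected count of runs was computed. The longest runs, picked as extremes after the values were seen, held 6 consecutive sites. There were 7 such runs, among them chr13:74337445-74700158, chr2:44522536-44771529 and chr3:82930653-83161028, with DMSO scores of 69 to 384, 79 to 287 and 104 to 446. The chromosome 13 run lies in the 5 Mb window with the highest share.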

How the data were processed

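The deposited files are 7 peak lists, 1 per library. Each peak has 1 score, the authors' own whole number, whose definition is not given in the sources used here. Build hg19 was used and the peak caller named is MACS2 2.1.4, per the submitters' processing notes, which also list BWA 0.7.17-r1188, FastQC 0.11.9 and SAMtools 1.9; settings, thresholds and input controls are not given there. Lowest scores were 13 in the 22Rv1 lists and 40 to 48 in the LNCaP lists.

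Peaks on chromosome Y (464 with DMSO) were left out. Overlap was at least 1 bp, and its code gave the same 15571 members as bedtools 2.31.1. Deciles are of average score ranks within a list. Differences were weighted to the members' deciles, with 95% stratified normal intervals, and this was tested on simulated data. With 1 library per group no test was possible, and depth is unknown. Members, comparisons and alternatives were chosen with earlier results of these data known; presence against peaks found with DMSO only or with DMSO and GSK, the shCTL sites, the 5 Mb windows and runs, and presence by chromosome were added after seeing the data. Named sites are the 10 highest DMSO scores, the 5 highest combination scores, the 5 farthest from GSK, and the 5 highest DMSO scores among sites in all 4 lists of 22Rv1. Motifs, gene names and sequences were not used here, since they need an hg19 reference. The software was pandas 2.3.3 and numpy 2.4.6 under Python 3.11.15, with intervals from scipy 1.17.1 and plots from matplotlib 3.10.9.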

Additional observations from a re-analysis of the deposited data

How the results depend on the processing

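Of 74 alternatives over 14 results, 52 stayed within the interval of the reported value (counts: within 1.5 times) and 22 did not; 1 direction turned, that of shCTL presence against peaks found with DMSO only (−0.505, and 1.51 with equal-sized LNCaP lists), with 0 inside both intervals. The 42 alternatives for presence in 22Rv1 against peaks of all 3 LNCaP lists all gave differences below 0. The number of sites (15571) and their share of DMSO peaks without a GSK peak (67.9%) depended on list length: 6735 and 57.0% with equal-sized LNCaP lists, and 8901 and 38.8% with the combination list at the length of the GSK list. With only the higher-scoring 50% of each list they were 8053 and 71.4%. A DMSO peak whose GSK peak scored in the lower 50% then counted as lacking one. With the full lists, 1995 sites were in DMSO deciles 6 to 10. By reciprocal 50% overlap there were 17735 sites, and 14528 with no GSK peak within 1 kb. Without matching, the differences were −28.8 points for vehicle, −27.2 for shCTL, −22.3 for shSETD7 and −0.779 for SETD7. Others were −13.8 for vehicle matched also on combination decile; −13.6 (a peak within 1 kb) and −16.5 (equal-sized 22Rv1 lists) for shCTL; −14.2 (reciprocal overlap) and −18.7 (equal-sized LNCaP lists) for shSETD7; −0.301 (reciprocal overlap) for SETD7; and 4.63 for vehicle against peaks found with DMSO only (equal-sized LNCaP lists). The shSETD7 difference at shCTL sites (−16.5) was −24.1 matched on DMSO decile only, −7.47 on shCTL decile only, −18.8 with combination decile added, −14.6 within 1 kb and −18.6 with equal-sized LNCaP lists. Shorter lists hold fewer peaks; for the other changes the cause was not tested. Matching on combination decile or chromosome, leaving out DMSO peaks at SETD7 peaks, and all alternatives at shCTL sites or against peaks found with DMSO only, were chosen after seeing the data. The planned motif alternative was not run, since no hg19 sequence was used here. No paired analysis was possible because each group has 1 library. Unknown depth limits every share.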
